A study of Mus musculus with 2 samples.

Results

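Pparg, Cebpa, Cebpb, Cebpd, Cebpg, Rxra, Rxrb, Nr1h2 and Nr1h3 encode the nuclear receptor PPARG, 4 members of the C/EBP family of basic leucine zipper factors, 2 retinoid X receptors and both liver X receptors. These 9 of 21853 protein-coding genes were chosen by name for their place in the transcriptional core of fat cell formation. The choice was made with earlier results of these data known. The peaks described are those of an LSD1 peak list in mouse brown adipocytes. A peak counted as a promoter peak when it overlapped by at least 1 bp the sequence 1 kb to either side of any start of a protein-coding transcript of the gene (GENCODE M21). A window peak overlapped the stretch from 50 kb upstream to 50 kb past the gene. The windows held 103 of the 59175 peaks of the list.

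The study mapped LSD1 (lysine-specific demethylase 1, a flavin-dependent enzyme that takes methyl groups off histone lysines) by chromatin immunoprecipitation and sequencing, to find its targets in brown adipocytes, the heat-producing fat cells. It comprised 1 LSD1 immunoprecipitate, made with an antibody raised in the submitters' laboratory, and 1 input DNA library without antibody. Both came from differentiated primary brown adipocytes of strain C57BL/6 N with the genotype given as Control, at passages 2 to 3 and day 10 of differentiation. The cells of both libraries had been treated with rosiglitazone and dexamethasone (1 µM each), insulin (850 nM), isobutylmethylxanthine (500 µM), indomethacin (125 nM) and the thyroid hormone T3 (1 nM), and were fixed for 5 min. Serum is given as 20% for both. Rosiglitazone is a ligand of PPARG, so the labelled culture received an agonist of one of the 9 gene products. All values below come from the LSD1 peak list, and an input peak list was not analysed here. There was 1 LSD1 library and no replicate, so no error can be attached to a score or a count, no test was run, and an order of scores is an order within this library only. The labels do not say how many animals gave the cells.

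A peak list holds no expression, so the labelled cell type could not be checked against marker transcripts. Scores are the authors' own value per peak, on a scale not given in the sources used here. They had a median of 111 over all peaks and ran between 50.1 and 3224, with 33 peaks tied at 3100. A score of 391 or more placed a peak in the top decile of the list. The median peak was 628 bp wide. No read counts are given, and the depth is unknown.

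In textbook accounts of adipogenesis, C/EBPβ and C/EBPδ are induced first by the hormonal cocktail and switch on Pparg and Cebpa, whose products then maintain each other's expression and drive the genes of the mature fat cell. PPARG binds DNA as a heterodimer with a retinoid X receptor on direct repeats of the hexamer AGGTCA spaced by 1 base. Liver X receptors, which sense oxysterols and control cholesterol export and lipogenesis, also pair with retinoid X receptors, on repeats spaced by 4 bases. LSD1 is found together with CoREST and histone deacetylases in complexes that repress genes, and has also been tied to gene activation.

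Upstream sequences of 3 starts show promoters with many and with few CpG among the 9 genes, 2 of them lying wholly inside an LSD1 peak and 1 without any peak within 1 kb. Each is the 250 bases before the transcript start in GRCm38.p6 (the chromosomes of mm10), read 5′ to 3′ on the strand of the gene from the RefSeq genome, with CpG dinucleotides in capitals. The first stands before the inner Pparg start at position 115422066 (chr6:115421816-115422065, plus strand), which had no peak. The others stand before Cebpa (chr7:35119043-35119292, plus strand) and before Nr1h3 (chr2:91195152-91195401, minus strand).
Pparg, inner start: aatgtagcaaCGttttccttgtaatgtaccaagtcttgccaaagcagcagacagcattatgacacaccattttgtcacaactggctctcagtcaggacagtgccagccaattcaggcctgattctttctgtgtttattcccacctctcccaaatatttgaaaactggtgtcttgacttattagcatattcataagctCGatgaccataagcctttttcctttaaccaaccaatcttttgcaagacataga
Cebpa: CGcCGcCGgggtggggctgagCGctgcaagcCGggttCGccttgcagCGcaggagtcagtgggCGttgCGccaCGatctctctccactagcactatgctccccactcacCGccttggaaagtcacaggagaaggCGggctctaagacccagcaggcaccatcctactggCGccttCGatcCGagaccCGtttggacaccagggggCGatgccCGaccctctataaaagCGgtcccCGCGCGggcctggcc
Nr1h3: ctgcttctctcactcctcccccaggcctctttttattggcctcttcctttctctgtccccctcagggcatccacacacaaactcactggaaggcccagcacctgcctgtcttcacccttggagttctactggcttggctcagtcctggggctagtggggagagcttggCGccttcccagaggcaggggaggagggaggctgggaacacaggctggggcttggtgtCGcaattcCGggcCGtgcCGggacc
These 250 bases hold 2 CpG at the inner Pparg start, 22 at Cebpa and 5 at Nr1h3. Their GC content was 40.8%, 66.4% and 62.0% in the same order.

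Every one of the 9 genes had an LSD1 promoter peak, against 55.8% of all protein-coding genes. Their highest promoter scores ran between 209.8 and 1619 with a median of 457, against a median of 315 (quartiles 156 and 570) over the 12199 genes with a promoter peak. Of these promoter-bound genes 33.8% scored 457 or more. In 6 of the 9 genes (Cebpa, Cebpb, Rxrb, Cebpd, Nr1h3 and Pparg) the promoter peak was in the top decile of the list, against 22.8% of all genes. All 9 scored at or above the list median, against 47.3% of all genes. Both shares count genes without a promoter peak as not meeting the rule, so they partly restate that all 9 were bound. Of the 12199 promoter-bound genes 4984 were in the top decile and 10341 at or above the list median. The promoter peaks of the 9 genes had a median width of 1305 bp, against 1027 bp for the best promoter peaks of all promoter-bound genes. The 9 genes spread across the range of promoter-bound genes: 3 of them (Nr1h2, Rxra and Cebpg) lay below its median and 3 (Cebpa, Cebpb and Rxrb) above its upper quartile.

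**Figure D1:**
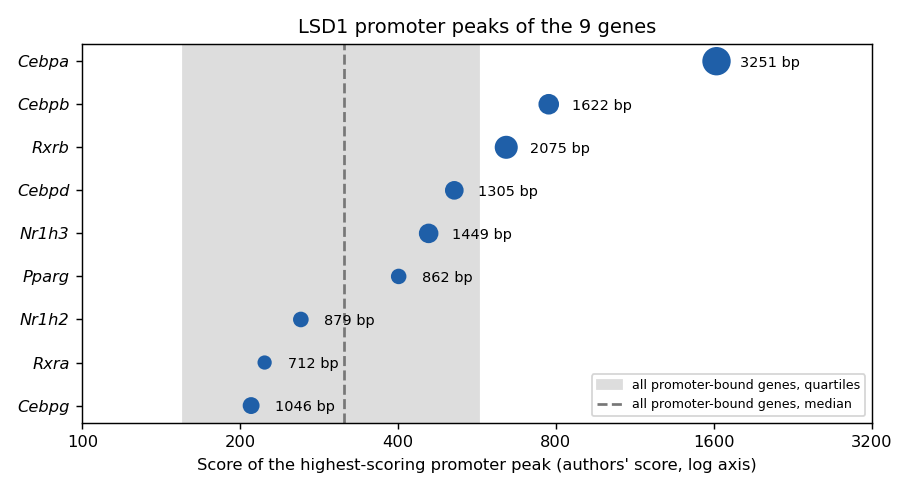
Highest LSD1 promoter score of each of the 9 genes (authors' score, log axis), with the peak width beside each point and point area growing with width; the grey band and dashed line are the quartiles and median over the 12199 promoter-bound genes. Cebpa stands apart at 1619 and 3251 bp, and Nr1h2, Rxra and Cebpg fall left of the median of 315.

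Pparg, the nuclear receptor required for fat cell formation, lies on chromosome 6 at 115360951 to 115490399 on the plus strand and has 5 distinct protein-coding starts spread over 61.1 kb. Its 1 promoter peak, at chr6:115360437-115361298, was 862 bp wide and scored 401, at or above 90.4% of all peaks and 60.4% of promoter-bound genes. The peak covered the outermost start, its midpoint 84 bp upstream. The next start, at 115362292, had only 7 bp of the same peak within 1 kb and lay 994 bp from the peak's edge. The starts at 115362349, 115383699 and 115422066 had none. The last of these is the start of RefSeq transcript variant 2, which encodes the fat-selective PPARG2 isoform. The closest peak midpoints to that start were 5740 bp upstream, scoring 85.9, and 6454 bp downstream, scoring 88.4. A stretch of 54.7 kb without any peak separated the promoter peak from the first of these intronic peaks. LSD1 peaks were thus called over the CpG-rich outer start of Pparg and not within 1 kb of the inner start.

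Among the C/EBP genes the scores were furthest apart. Cebpa, which sustains Pparg expression and insulin sensitivity in fat cells, had a peak at chr7:35117859-35121109 that was 3251 bp wide, scored 1619 and covered both of its starts 10 bp apart. It covered most of the gene, whose record runs between 35119293 and 35121928 on the plus strand, and also overlapped an antisense transcript, Gm45091. It scored at or above 99.6% of all peaks and 97.7% of promoter-bound genes. Cebpb, an early inducer of adipogenesis, has 1 start and carried a peak at chr2:167688550-167690171, 1622 bp wide with a score of 775, at or above 86.0% of promoter-bound genes. The gene itself spans 167688915 to 167690418 on the plus strand. Cebpd, the other early inducer, also has 1 start, and its peak at chr16:15886529-15887833 was 1305 bp wide and scored 512, at or above 70.9% of promoter-bound genes. Its gene spans 15887286 to 15891031 on the plus strand.

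Cebpg encodes a C/EBP protein that lacks the activation domains of its relatives and acts by forming heterodimers. It had the lowest score of the 9 genes and was the only one of them with 2 promoter peaks. The first, at chr7:35055620-35056665, was 1046 bp wide, scored 209.8 and covered both starts. The second, at chr7:35056975-35057514, was 540 bp wide, scored 104 and lay 402 bp upstream of the outer start. The Cebpg gene (35046422 to 35056573, minus strand) and Cebpa are neighbours on chromosome 7, and their scores stood at 34.0% and 97.7% of promoter-bound genes.

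The retinoid X receptors, the obligate partners of PPARG and of the liver X receptors, had promoter scores on either side of the promoter-bound median. Rxra (chromosome 2, 27676440 to 27762957, plus strand) had a peak of 712 bp at chr2:27677260-27677971 that scored 222.6, at or above 36.2% of promoter-bound genes. It began 2 bp before the start at 27677262, lay 59 bp from the start at 27677201 and 820 bp from the outermost start. The inner starts at 27709292 and 27710583 had no peak within 1 kb. Rxrb (chromosome 17, 34031812 to 34038399, plus strand) had a peak of 2075 bp at chr17:34030167-34032241 that scored 643, at or above 79.7% of promoter-bound genes. The Rxrb peak is also the promoter peak of Slc39a7, which encodes a zinc transporter. Its midpoint lay 296 bp downstream of the Slc39a7 start and 608 bp upstream of the outermost Rxrb start. Which of these genes the peak belongs to cannot be told apart from its position.

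Both liver X receptor genes had a promoter peak. Nr1h3, the gene of LXRα (chromosome 2, 91184061 to 91202834, minus strand), had a peak of 1449 bp at chr2:91194259-91195707 scoring 457, which covered all 4 of its protein-coding starts. These starts lie 7.68 to 7.95 kb inside the gene record, and the 5′ end of the record itself had no peak within 1 kb. Nr1h2, the gene of the broadly expressed LXRβ (chromosome 7, 44549616 to 44553951, minus strand), had a peak of 879 bp at chr7:44553584-44554462 that scored 261. It covered 7 of the 9 Nr1h2 starts, ended 372 bp from the start at 44553212, and lay more than 1 kb from the innermost one at 44552245.

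Over the 9 genes, 27 of 33 distinct protein-coding starts had a peak within 1 kb. Of the 7 genes with 2 or more starts, 3 (Pparg, Rxra and Nr1h2) had at least 1 start without a peak, against 44.6% of promoter-bound genes with several starts. Genes with 2 or more starts were promoter-bound in 62.9% of cases. The 6 starts without a peak had CpG ratios of 0.50, 0.15 and 0.20 in Pparg, 0.12 and 0.15 in Rxra, and 0.50 in Nr1h2. The ratio is the observed over the expected number of CpG in 1 kb around a start. The most CpG-rich starts of Pparg, Rxra and Nr1h2 had ratios of 0.95, 1.01 and 0.75, and all 3 had a peak. The 4 Nr1h3 starts, all with a peak over them, had 0.32 to 0.38. The lowest ratios of the 33 starts were those of the Pparg and Rxra starts at 0.20 or less, none of which had a peak within 1 kb.

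Promoter CpG content moved with LSD1 occupancy over all genes, and 8 of the 9 genes were CpG-rich. The CpG ratio, taken at the start where it is highest, had a median of 0.92 in the 9 genes and 0.61 in all genes. Pparg, Cebpb, Cebpg, Rxra and Rxrb were in decile 10 of genes by this ratio, where 93.4% of genes had a promoter peak, with a median score of 437.5. Cebpa and Cebpd were in decile 9, with 90.1% bound and a median of 385, and Nr1h2 was in decile 7, with 84.3% bound and a median of 338. A promoter peak is thus what most genes with the CpG content of these 8 have. Among bound genes of the same decile Cebpa scored at or above 96.6%, Cebpb 78.0%, Rxrb 69.9%, Cebpd 63.9%, Pparg 45.8%, Nr1h2 38.2%, Rxra 22.2% and Cebpg 20.6%. Nr1h3 was the exception in CpG content, with a ratio of 0.38 in decile 4, where 33.9% of genes were promoter-bound with a median score of 158. Its score of 457 was at or above 87.4% of the bound genes of that decile. The part of CpG content in these peaks was not tested.

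**Figure D2:**
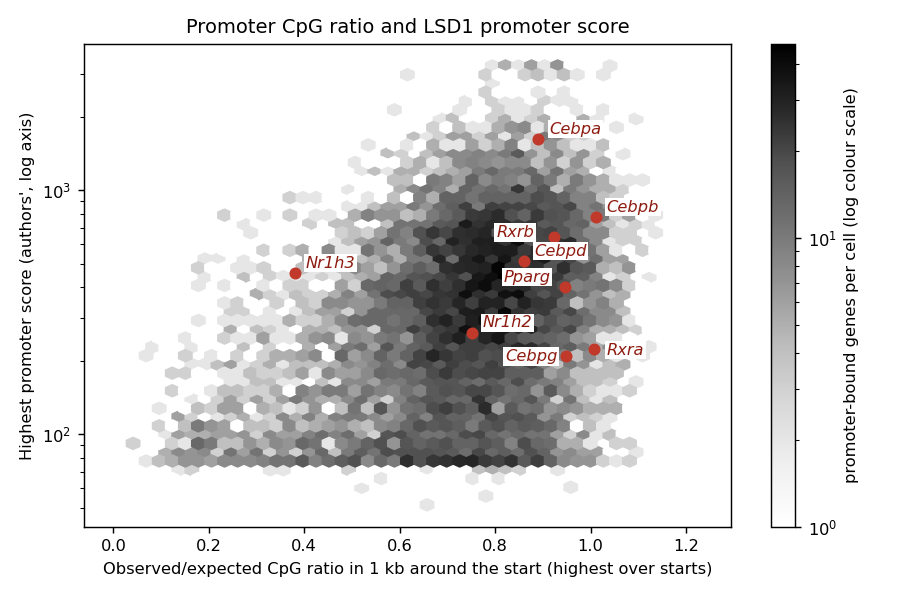
Highest LSD1 promoter score (authors' score, log axis) against the observed over expected CpG ratio of the promoter; red points are the 9 genes and grey cells count promoter-bound genes (log colour scale). Nr1h3 lies apart from the other genes at a ratio of 0.38 with a score of 457, while those 8 lie between 0.75 and 1.01 and spread over scores of 209.8 to 1619.

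The windows of the 9 genes held more peaks than that of the usual gene. They contained a median of 9 peaks, against 5 over all genes (quartiles 2 and 9), and 7 of the 9 genes exceeded that median. Because long genes have long windows, the density is given too: a median of 8.63 peaks per 100 kb for the 9 genes, against 3.54 for all genes. All 9 were above that value. Rxra had the most, with 27 peaks and 14.5 per 100 kb, and 99.4% of genes had fewer peaks. Pparg followed with 17 peaks (7.41 per 100 kb, 94.8% of genes with fewer), then Cebpb with 13 (12.8 per 100 kb) and Rxrb with 11 (10.3 per 100 kb). Cebpa and Nr1h2 had 9 each, Cebpg had 8, and Cebpd and Nr1h3 had 5 each, the number in the median gene. The values over all genes include genes without a promoter peak, and none was taken over promoter-bound genes alone. High counts were not particular to the 9 genes. Their relatives Ppara, Ppard, Rxrg, Cebpe, Ddit3 and Nr1h4 had 13, 21, 3, 3, 13 and 7 window peaks. The retinoid X receptor partners Rara, Rarb, Rarg, Vdr, Thra and Thrb had 23, 7, 16, 15, 21 and 7.

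Of the 103 window peaks 58 lay nearest to a start of the 9 genes (56.3%), and 1 peak was shared by the Cebpa and Cebpg windows. By midpoint, 46 were intergenic (44.7%, against 30.9% of all peaks), 31 intronic (30.1% against 40.8%) and 22 within 1 kb of a protein-coding start (21.4% against 22.2%). The 81 window peaks away from starts resembled such peaks elsewhere: their median score was 108 against 102, their median width 602 bp against 603 bp, and 4.94% of them were in the top decile against 3.43%. Their CpG ratio was at most 0.56, with a median of 0.17. Peaks outside the promoters were the rule, found in the windows of all 9 genes and of 81.8% of all genes. In 5 of the 9 genes (Cebpb, Cebpg, Rxra, Rxrb and Nr1h2) another window peak scored above the gene's own promoter peak, against 55% of promoter-bound genes.

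Rxra had peaks of its own neighbourhood that outscored its promoter. Inside the gene 9 intronic peaks scored between 80.8 and 303, the highest at chr2:27699334-27700393. Past the gene end 12 peaks lay 11457 to 50034 bp away with scores of 65.7 to 505, and 4 of them scored above the promoter's 222.6. These were at chr2:27773816-27775012 (307), chr2:27775221-27776355 (398), chr2:27792730-27794345 (505) and chr2:27802183-27803116 (224.6). The peak of 505 was 1616 bp wide and centred 30.6 kb past the gene end. The first 6 of the 12 were nearest to an Rxra start and the last 6 to the start of the collagen gene Col5a1. Upstream of Rxra 5 peaks scored between 77.1 and 154.

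The central 200 bp of the peaks scoring 398 and 505 are shown because each holds a match to the C/EBP-type motif TTGCNNAA, in capitals, on the minus strand in the first and on the plus strand in the second. Both are read from the plus strand of GRCm38.p6 in the RefSeq genome, at chr2:27775688-27775887 and chr2:27793437-27793636.
Rxra, peak scoring 398: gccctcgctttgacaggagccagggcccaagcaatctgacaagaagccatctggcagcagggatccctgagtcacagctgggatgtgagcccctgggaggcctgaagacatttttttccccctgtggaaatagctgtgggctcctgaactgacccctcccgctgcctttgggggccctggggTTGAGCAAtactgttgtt
Rxra, peak scoring 505: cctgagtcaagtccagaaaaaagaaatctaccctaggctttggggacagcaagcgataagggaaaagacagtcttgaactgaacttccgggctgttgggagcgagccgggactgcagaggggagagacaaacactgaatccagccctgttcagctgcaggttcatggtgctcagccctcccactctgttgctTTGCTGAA
Of all 59175 peaks 8.60% hold such a match in their central 200 bp, so these matches are described and no factor is inferred from them.

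Around Pparg the peaks were mostly low. The 3 upstream peaks other than the promoter peak scored 78.5, 121 and 126, and 4 intronic peaks scored 85.9, 88.4, 130.5 and 81.3. Past the gene end 9 peaks lay 2.62 to 48.1 kb away with scores of 77.6 to 293. The highest, at chr6:115519144-115520126, was 983 bp wide, scored 293 and was centred 29.2 kb past the gene end. None of the window peaks scored above the promoter peak.

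Cebpa also had no window peak above its promoter. A stretch of 37.3 kb without a peak lay upstream, ending at a peak scoring 85.8 centred 2220 bp before the start. Past the gene 6 peaks scored between 79.4 and 294. The highest, at chr7:35155663-35156999, was 1337 bp wide and 34.4 kb past the gene end, nearest to the start of the amino acid transporter gene Slc7a10. The next highest, at chr7:35141219-35142363, scored 232, overlapped the long noncoding RNA gene Gm35665 and was nearest to Cebpa. Cebpg had its higher scores elsewhere: 4 peaks past its end, in an intron of the peptidase gene Pepd, scored 77.6, 52.9, 422 and 266.5. The peak of 422, at chr7:35035964-35036732, was 769 bp wide and 10.1 kb past the gene end, and both it and the peak of 266.5 exceeded the promoter score of 209.8. All 8 peaks of the Cebpg window were nearest to a Cebpg start.

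Cebpb was flanked by peaks on both sides. Upstream, a peak at chr2:167686663-167687631 centred 1768 bp before the start scored 376, and another centred 8860 bp before it scored 112. Downstream, 1 peak of 84.9 followed the gene end, and 6 peaks in introns of the long noncoding RNA gene A530013C23Rik scored between 96.7 and 176. Of the 13 window peaks 10 were nearest to Cebpb. The one window peak above the Cebpb promoter score, at chr2:167659851-167661146 with 809, is a promoter peak of Tmem189 and of its overlapping gene model Gm20431. Cebpd had no peak past the gene and 2 peaks of 120 and 80.8 centred 11119 and 8943 bp upstream. The other 2 peaks of its window, 109 and 116, were at the promoter of the neighbouring gene Mzt2.

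Rxrb sits in a gene-dense stretch of the major histocompatibility region, and none of its 11 window peaks was nearest to an Rxrb start. Higher promoter peaks there belonged to H2-Ke6, a steroid dehydrogenase gene (chr17:34027476-34029439, score 959), and to the class I histocompatibility gene H2-K1 (chr17:33999349-34000655, score 826). Ring1, a Polycomb gene, had 580.0 and the collagen gene Col11a2 had 285. Inside Rxrb 1 peak, at chr17:34037390-34037977, scored 100.6. It was centred in an untranslated region and was nearest to the Col11a2 start. For Nr1h2 only the promoter peak was nearest to its own starts. The promoter peak of Pold1, the DNA polymerase delta catalytic subunit gene next to it, scored 396 at chr7:44548039-44549307, above the 261 of Nr1h2. Nr1h3 had 1 further peak of its own, at chr2:91196179-91196920 with a score of 127, centred 1398 bp upstream of the outermost protein-coding start. The others were 2 at the promoter of Madd (100.4 and 89.2) and 1 nearest to Pacsin3 (77.6).

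**Figure D3:**
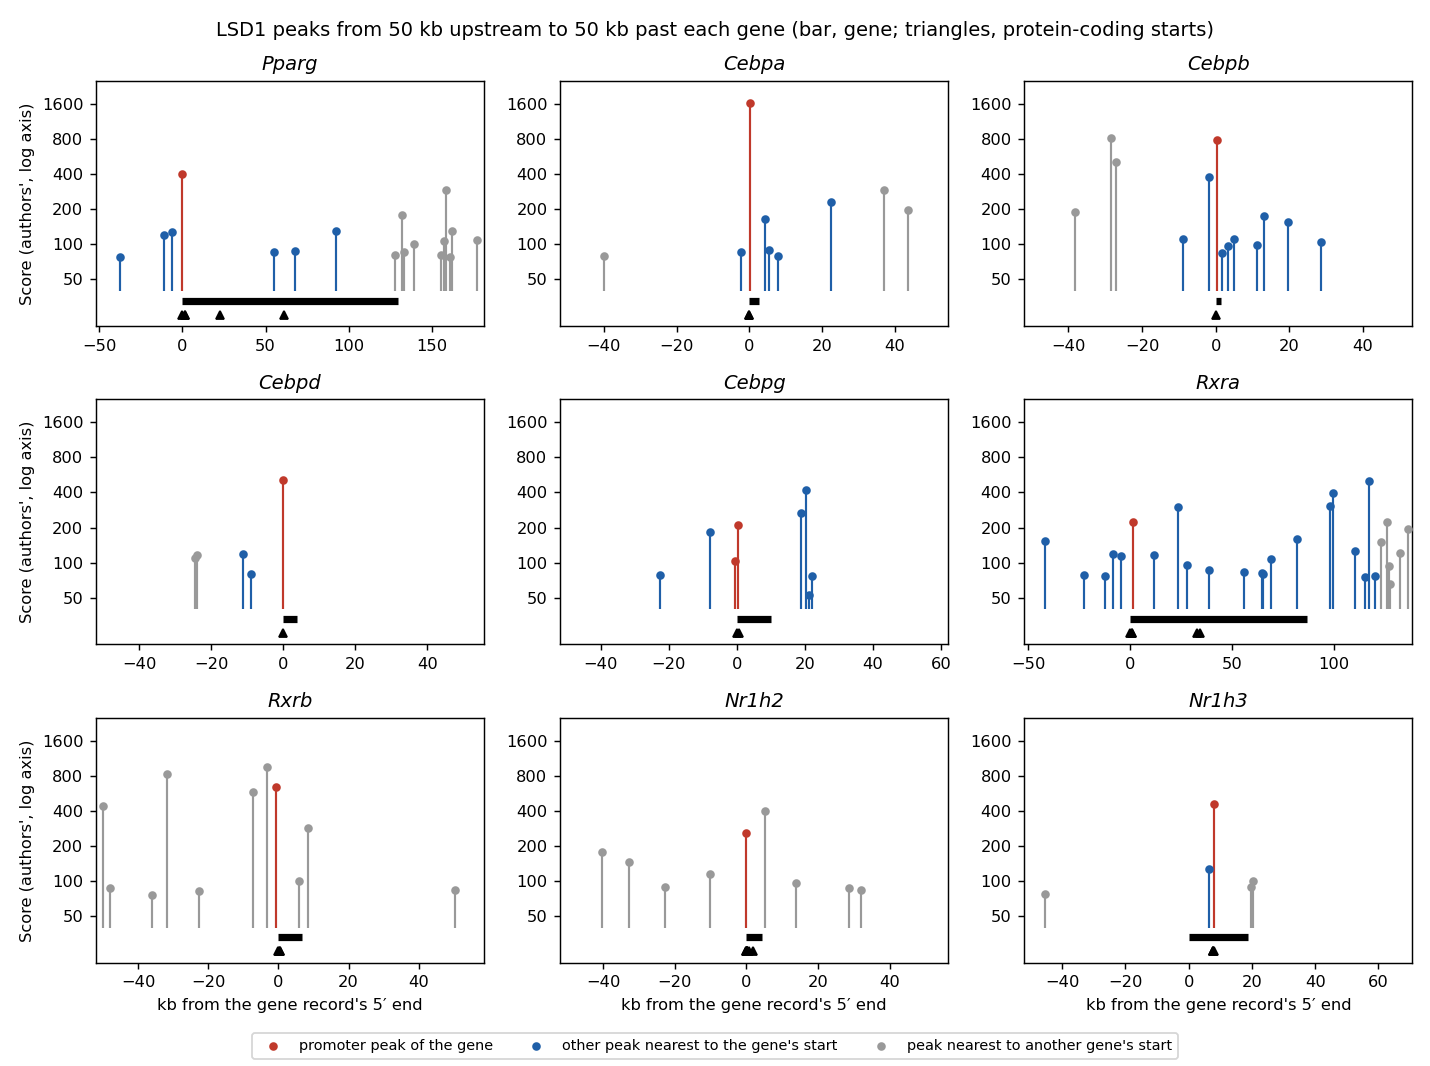
LSD1 peaks from 50 kb upstream to 50 kb past each of the 9 genes, by distance of the midpoint from the 5′ end of the gene record (kb) and authors' score (log axis); bars mark the gene, triangles its protein-coding starts, and colours whether a peak is the gene's promoter peak, another peak nearest to its start or nearest to another gene. Pparg shows 1 promoter peak at its left end and none at the inner starts. Rxra shows peaks past its end that exceed its promoter score. None of the peaks shown for Rxrb is nearest to an Rxrb start.

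The short motifs searched for were near the share of all peaks in the central 200 bp of the window peaks. Exact matches on both strands were counted for the hexamer AGGTCA, for 2 copies of it as a direct repeat with 1 base (DR1) or 4 bases (DR4) between, for TTGCNNAA with N any base, and for CCAAT. A DR1 or DR4 match contains 2 hexamer matches, and TTGCNNAA and CCAAT can overlap by some bases. There the hexamer was found in 12 of 103 window peaks (11.7%, against 12.3% of all peaks). TTGCNNAA was found in 9 (8.74% against 8.60%) and CCAAT in 25 (24.3% against 23.1%). DR1 and DR4 had 0 matches, against 0.0507% and 0.0101% of all peaks. Over whole peaks DR1 matched in 3 of 103 (2.91%, against 0.203% of all peaks) and DR4 in 0.

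The DR1 matches in whole peaks were all outside the promoter peaks of the 9 genes, and 2 of the 3 lay in peaks nearest to Cebpb. They are shown with 50 bases on either side, the repeat in capitals, read from the plus strand of GRCm38.p6 in the RefSeq genome. The first is in the peak scoring 96.7 past the Cebpb gene (chr2:167692020-167692132), and the second, a match on the minus strand, is in the peak scoring 112 upstream of Cebpb (chr2:167679751-167679863).
DR1 past Cebpb: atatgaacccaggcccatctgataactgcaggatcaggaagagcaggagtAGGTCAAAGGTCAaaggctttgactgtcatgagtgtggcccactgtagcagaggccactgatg
DR1 upstream of Cebpb: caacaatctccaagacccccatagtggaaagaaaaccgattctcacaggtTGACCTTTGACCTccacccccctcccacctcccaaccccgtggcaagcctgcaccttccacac
The remaining match, at 34027880 to 34027892 of chromosome 17, is in the H2-Ke6 promoter peak.

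RefSeq promoter sequences (250 bases before to 50 bases after a start, GRCm38.p6) were matched for 8 of the 9 genes, with 13 promoters among 32851; Cebpd is the gene not matched. TTGCNNAA was found in 1 of the 13, the inner Pparg start at 115422066 that had no LSD1 peak, against 10.8% of all promoters. There it matched at 215 bases before the start as TTGCCAAA and at 16 bases before it as TTTTGCAA, and CCAAT matched 144 and 22 bases before the start. CCAAT was found in 3 of the 13 (2 of Pparg and 1 of Cebpg), against 37.4% of all promoters. AGGTCA was found in 3 of the 13 (2 of Pparg and 1 of Rxra), against 16.3%. DR1 and DR4 were found in 0 of the 13, against 0.0396% and 0.0152% of all promoters.

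Other genes of the pathway were also often promoter-bound, and the share over all protein-coding genes was 55.8%. That share covers all CpG contents: it was 3.48% in the lowest CpG decile and 93.4% in the highest. The lists were not set against genes of like CpG content. All 14 upstream activators of adipogenesis had a promoter peak, with a median best score of 754, above the 457 of the 9 genes. The highest were Egr2 (1815), Klf5 (1508) and Klf4 (1329), zinc finger factors that act early in the programme. Of 11 inhibitors of adipogenesis 10 were bound, with a median of 678. The highest were Hes1 (1977), a Notch target and transcriptional repressor, Foxo1 (1753), a forkhead factor restrained by insulin, and Gata3 (1019.6). Dlk1, the preadipocyte factor, had no promoter peak.

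Relatives of the 9 genes and other partners of the retinoid X receptors had a promoter peak in 10 of 12 genes, and the median best score was 323. Ddit3, the stress-induced C/EBP relative also counted among the inhibitors, scored 835, the thyroid hormone receptor gene Thrb 564 and the retinoic acid receptor gene Rara 519.5. Ppard and Cebpe had no promoter peak. Of 17 coregulator genes 16 had a promoter peak, and their median was 435. The highest were Ncoa2 (1530.7), a nuclear receptor coactivator, Ppargc1b (834), a relative of the thermogenic coactivator PGC-1α, and Tle3 (616). Crebbp, a histone acetyltransferase gene, had none.

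Genes that the factors are known to control were bound in part. Of 24 PPARG and C/EBP target genes in fat 18 had a promoter peak, with a median of 314, beside the 315 of all promoter-bound genes. The fatty acid binding protein gene Fabp5 (1408), the triglyceride lipase gene Pnpla2 (1293) and the acyl-CoA synthetase gene Acsl1 (1177) scored highest. The lowest were Adipoq (76.0), Plin2 (77.9), Plin1 (93.9), Cidea (103) and Fabp4 (110), all below the median of 111 over all peaks. The fatty acid transporter gene Cd36 and the lipid droplet gene Cidec had no promoter peak, nor had Pck1, Gpd1, Lep and Ucp1. Of 12 liver X receptor target genes 9 were bound, with a median of 484. Abcg1, a cholesterol exporter gene, scored 1109.95, Lpcat3 982 and Mylip 879, while the sterol transporter genes Abcg5 and Abcg8 had no promoter peak. Of genes known for their part in brown fat, Ucp1 had no promoter peak, while those of Cidea, Prdm16, Ebf2 and Ppargc1a scored 103, 206, 249.8 and 403.

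**Figure D4:**
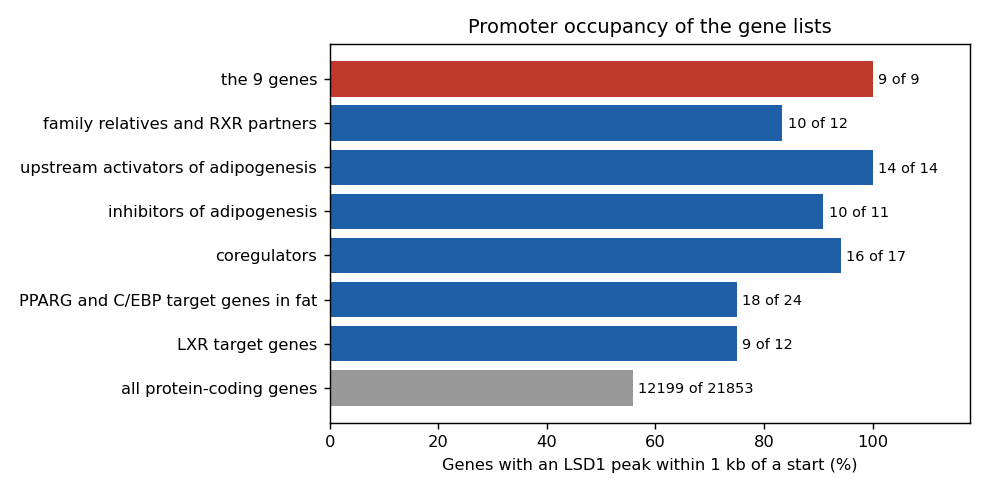
Share of genes with an LSD1 peak within 1 kb of a protein-coding start (%), for the 9 genes, 6 lists of related genes and all protein-coding genes, with counts beside the bars. For promoters of 1 kb all lists lie above the 55.8% of all genes. The 9 of 9 and 14 of 14 stand at the top, and 18 of 24 and 9 of 12 at the lower end. With promoters of 2.5 kb, 12 of 12 liver X receptor targets and 20 of 24 PPARG and C/EBP targets were bound (59.1% of all genes). With 500 bp these were 9 of 12 and 14 of 24 (53.7% of all genes).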

How the data were processed

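LSD1 ChIP-seq and input DNA libraries (1 each) came from differentiated primary brown adipocytes of 1 group. Per the labels' protocols, Bowtie2 aligned the reads to the mm10 build. The submitters' processing notes name MACS 1.41. The sources used here do not give the peak threshold, the read filters or whether the input library served as control. For the LSD1 library the deposited list holds, for each peak, a chromosome, a start, an end and a score, and this score is the authors' value, on a scale not given in the sources used here. It was used only to describe, rank and filter peaks within the list. No counts are given, so the depth is unknown.

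Starts were converted to count the first base as 1. Peaks were set against protein-coding transcript starts of GENCODE M21 on GRCm38.p6, whose chromosomes are those of mm10, and 0 peaks reached past a chromosome end. A promoter peak overlapped 1 kb on either side of a start by at least 1 bp, and a window peak overlapped 50 kb on either side of the gene. Classes and nearest starts were taken from peak midpoints. Python 3.11.15, pandas 2.3.3, numpy 2.4.6, pysam 0.24.0, scipy 1.17.1 and matplotlib 3.10.9 were used, and the counting was tested on simulated data. No test was applied, because there is 1 library. The genes and lists were chosen with earlier results of these data known. The text names all 9 genes with their promoter peaks, their highest window peak and the peaks nearest to them, from each list the 3 top genes by promoter score and the first 2 that lack a promoter peak, and window genes with a higher promoter peak. Other peaks of a window are named besides, to account for each window, as are 4 brown fat genes by name and Ppargc1a, which was added after its value was seen. Added in the same way were the lowest-scoring and the other unbound PPARG and C/EBP targets, and the window counts of relatives and partners. Alternatives changed the promoter width, the window, the overlap rule, the score range, the starts used and the motif window.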

Additional observations from a re-analysis of the deposited data

How the results depend on the processing

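All 9 genes kept a promoter peak with promoters of 500 bp (53.7% of all genes) or 2.5 kb (59.1%). They also did with the midpoint required inside (54.1% of all genes) and among peaks at or above the median score (47.3%). With the 5′ end of the gene record as the only start 8 had one, against 52.3% of all genes, Nr1h3 being the exception. The median score was then 456.5, and 44.7% of window peaks were nearest to one of the 9 genes. In the tenth of peaks with the highest scores, 6 of the 9 genes were bound (median 578), as were 4 of 12 relatives and partners, 9 of 14 activators, 7 of 11 inhibitors, 11 of 17 coregulators, 6 of 24 PPARG and C/EBP targets and 5 of 12 liver X receptor targets, against 22.8% of all genes, and the windows held 16 peaks. With promoters of 2.5 kb all 12 liver X receptor targets and 20 PPARG and C/EBP targets were bound (59.1% of all genes), and with 500 bp 9 and 14 (53.7%). Among peaks at or above the median score the windows of the 9 genes held 56. Windows of 10 kb held 53 peaks (73.6% nearest to the 9 genes) and windows of 100 kb held 176 (43.2%). Motif counts grow with the sequence searched: in 500 bp AGGTCA matched in 27 peaks, DR1 in 1, TTGCNNAA in 15 and CCAAT in 47, and in whole peaks in 43, 3, 26 and 59. The side of all peaks on which the window peaks fell also changed. TTGCNNAA was found in 14.6% of them in 500 bp and 25.2% in whole peaks, below the 19.7% and 27.9% of all peaks, and CCAAT in 45.6% and 57.3%, below 47.6% and 60.5%. AGGTCA was found in 26.2% in 500 bp, below 27.9%, and in 41.7% of whole peaks, above 38.2%. DR1 was found in 0.971% and 2.91%, above 0.139% and 0.203%, from 1 and 3 peaks. The cause was not tested. With 1 library, neither replicates nor depth limits can be assessed, and differences in score between the 9 genes have no known error. No paired analysis was possible because the study has 1 LSD1 library and no replicate numbers shared between compared groups.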
